A study of Mus musculus with 16 samples.

Results

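The AP-1 family genes Fos, Fosb, Fosl1, Fosl2, Jun, Junb, Jund and Batf were followed through CD3/CD28 stimulation of D10 T cells with and without Akt inhibition. The members are the genes whose symbol in the intensity table is one of these 8 names, and 6 of the 8 have a row among the 18138 genes of the table. Jund stands there under its older symbol Jund1 and was matched by its Entrez identifier, 16478. Fosl1 and Fosl2 were not analysed here. Fosb was above background on 0 of the 16 arrays and was not tested, so 5 members entered the tests, of 7395 genes tested in all.

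D10 is a fast-growing variant of a single mouse Th2 clone, so every group stands for 1 cell line grown with IL-2, not for Th2 cells at large. Control cells were left untreated before stimulation, according to the methods, although the results name a solvent. The other cells were pre-incubated for 1 h with Akti1/2, an allosteric inhibitor of the kinases Akt1 and Akt2, at 10 µM. Each was then taken at 0, 2, 6 or 12 h of stimulation with biotinylated antibodies to CD3 and CD28 and streptavidin, which gave 8 groups of 2 arrays; no source states that duplicates were separate cultures, so the p-values measure only the spread between these arrays.

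AP-1 is a dimer of basic leucine zipper (bZIP) proteins, in which Jun proteins pair with themselves or with Fos proteins, while Fos proteins need a partner. Batf lacks a transactivation domain, pairs with Jun proteins and binds composite sites together with Irf4 or Irf8. In T cells, receptor and CD28 signals raise AP-1 through MAP kinases, both by new transcription and by phosphorylation of the proteins, and AP-1 acts with NFAT on cytokine genes. The arrays report mRNA only.

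The start regions of the members were searched for sites of AP-1 and of factors upstream of it. The 250 bases before the annotated start were read from RefSeq on GRCm38.p6 for 7 of the 8 members (Fosl1 had no entry). The motifs, read on both strands, were the AP-1 site TGACTCA, the cyclic AMP response element TGACGTCA, its variant TGACATCA, the ETS site CCGGAAGT and the serum response element known as the CArG box. They occur in 5.2%, 1.79%, 3.62%, 3.89% and 1.63% of 32851 promoter windows of the table, which also take in a short stretch past the start. Jun held the only match, TGACATCA, which begins 45 bases before its start and is printed in capitals. The windows of Jun (chr4:95052223-95052472, minus strand), Junb (chr8:84978749-84978998, minus strand) and Batf (chr12:85686470-85686719, plus strand) are shown 5′ to 3′ on the gene's strand, because these 3 genes carried the differences in response described below.
Jun: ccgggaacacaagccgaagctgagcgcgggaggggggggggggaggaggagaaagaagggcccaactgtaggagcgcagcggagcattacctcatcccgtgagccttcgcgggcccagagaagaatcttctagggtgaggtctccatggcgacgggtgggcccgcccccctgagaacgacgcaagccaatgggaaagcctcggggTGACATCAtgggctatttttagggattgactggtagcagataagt
Junb: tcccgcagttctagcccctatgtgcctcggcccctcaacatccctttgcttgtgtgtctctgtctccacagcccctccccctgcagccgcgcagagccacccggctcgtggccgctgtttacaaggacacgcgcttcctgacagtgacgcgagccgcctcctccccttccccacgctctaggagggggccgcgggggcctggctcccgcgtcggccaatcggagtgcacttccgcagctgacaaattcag
Batf: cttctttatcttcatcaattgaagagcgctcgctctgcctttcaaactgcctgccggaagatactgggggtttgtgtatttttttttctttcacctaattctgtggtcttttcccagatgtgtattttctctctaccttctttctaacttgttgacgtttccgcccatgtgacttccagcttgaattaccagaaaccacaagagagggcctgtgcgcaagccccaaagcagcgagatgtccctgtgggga
A match is a run of letters and not a measured binding site, and no match says only that these letters are not in the window.

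Values are log2 intensities after background correction on the negative controls and quantile normalization, unless raw intensities are named. A gene counted as above background on an array where under 0.01 of the 798 negative controls reached its raw intensity. Raw mean intensities per array lay between 393.8 and 544.0, and the lowest were the Akti1/2-treated arrays at 2 h (414.2 and 393.8), which also had the most genes above background (6907 and 6796, against 6288 to 6719 on the other 14). The Akti1/2-treated arrays at 6 h had the widest duplicate spread, with a median difference of 0.212 log2 against 0.124 to 0.163 in the other groups. Of 11 T and Th2 markers with a row, 8 were above background on all arrays (Cd3d, Cd3e, Cd3g, Cd247, Cd28, Gata3, Il4 and Il1rl1), Cd4 on 13, and Thy1 and Ccr4 on none. Of the 17 markers of other cells, Cd68 was above background on 15 arrays and Ms4a1 on 1, and the other 15 on none.

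**Figure D1:**
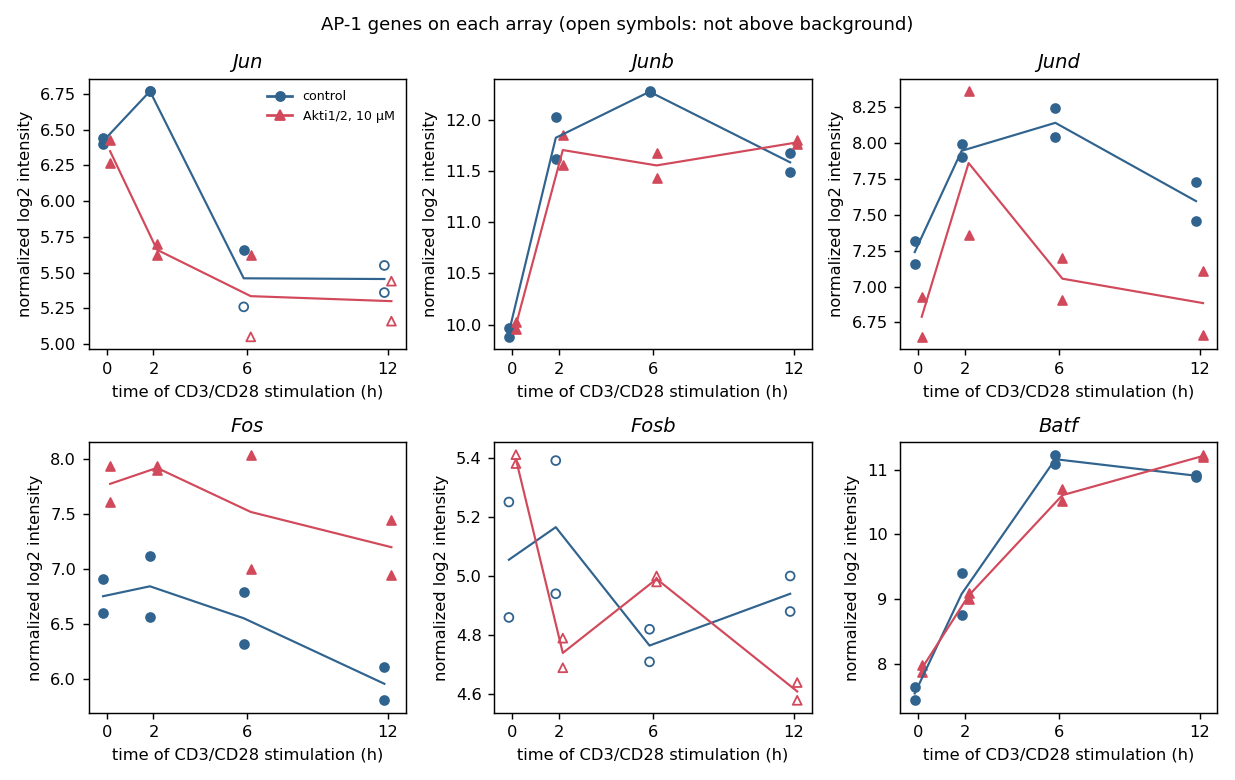
Normalized log2 intensity (vertical axes, scaled for each gene) of the 6 AP-1 genes with a row against hours of CD3/CD28 stimulation, for control (circles) and Akti1/2-treated cells (triangles). Each symbol is 1 array, lines join group means, and open symbols mark arrays not above background; Fos triangles lie above Fos circles at every time, both circles of Junb and Batf lie above both triangles at 6 h only, and all Fosb symbols are open.

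Among the Jun genes, Junb, which encodes a Jun protein often found in stimulated T cells and needed for Th2 cytokine expression, rose early in both kinds of cells and differed between them at 6 h. Control arrays read 9.97 and 9.88 before stimulation, then 12.03 and 11.62 (2 h), 12.28 and 12.27 (6 h) and 11.68 and 11.49 (12 h). With Akti1/2 they read 10.03 and 9.96, 11.56 and 11.85, 11.68 and 11.43, and 11.76 and 11.80. Every stimulated array lay above every unstimulated one, and at 6 h both treated arrays lay below both control arrays. In these bulk samples, less mRNA per cell and fewer expressing cells cannot be told apart.

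Junb rose 3.73-fold, 5.07-fold and 3.14-fold at 2, 6 and 12 h in control cells (log2 1.90, 2.34 and 1.65, SE 0.15) and 3.27-fold, 2.95-fold and 3.44-fold with Akti1/2 (1.71, 1.56 and 1.78, SE 0.15), with limma adjusted p-values from 2.92e-07 to 9.38e-06 over these 6 comparisons. At 6 h the treated level was lower by a log2 of 0.71 (a 1.64-fold difference, limma adjusted p = 0.00263), and the change from 0 to 6 h differed by -0.78 (SE 0.21, limma adjusted p = 0.0217). The control level then fell by 0.69 from 6 to 12 h (limma adjusted p = 0.00973), while the treated difference was 0.22 (95% interval -0.10 to 0.54). The difference between these 2 steps, a contrast added after the values were seen, was 0.91 (SE 0.21, limma adjusted p = 0.0282). Ranked by level, 6 h control cells stood first, and none of the 6 stimulated groups differed from its neighbour in that order beyond the spread (limma adjusted p = 0.0671 or more). The step from 6 h treated cells to 0 h treated cells did (1.56, limma adjusted p = 9.23e-06).

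The 6 h difference in the response of Junb held its sign in every alternative, from -0.91 to -0.66, but its adjusted p rose to between 0.0538 and 0.0708 without control 0 h replicate 2, either control 6 h array, Akti1/2 0 h replicate 1 or Akti1/2 6 h replicate 2. The fall of Junb from 6 to 12 h in control cells was lost without either 6 h array or without 12 h replicate 2 (adjusted p 0.0514 to 0.0824), and the difference between the 6 to 12 h steps without any of the 8 arrays at those times other than Akti1/2 6 h replicate 1 (0.0526 to 0.104), or with only the groups compared in the fit (0.0569). At 2 h, raw Junb intensities were 5082.0 and 3192.2 without the inhibitor against 2681.8 and 2694.0 in treated cells, a gap that normalization reduced to a log2 difference of -0.12 (95% interval -0.45 to 0.20).

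Jun, the founding Jun gene, was dim and moved the other way. Control arrays read 6.40 and 6.44 before stimulation, then 6.77 and 6.77 (2 h), 5.66 and 5.26 (6 h) and 5.36 and 5.55 (12 h). With Akti1/2 they read 6.27 and 6.43, 5.62 and 5.70, 5.62 and 5.05, and 5.16 and 5.44. At 2 h both treated arrays lay more than 1 log2 unit below both control arrays, while at 0, 6 and 12 h the groups overlapped. At 6 h only 1 array of each group was above background, and at 12 h none was.

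In control cells Jun had not changed by the test at 2 h (0.35, 95% interval -0.05 to 0.75) and had fallen by 6 h, with a log2 change of -0.96 (SE 0.18, limma adjusted p = 0.0021) to a level that 1 of the 2 arrays measured above background. With Akti1/2 it had fallen already at 2 h, with a log2 change of -0.68 (1.61-fold, limma adjusted p = 0.0114), and at 6 h with one of -1.01 (limma adjusted p = 0.00111), again with 1 of 2 arrays above background. At 12 h it lay at least 1.64-fold below its 0 h level without the inhibitor, and at least 1.68-fold below it in treated cells; these are bounds, set by the dimmest signal above background. At 2 h the treated level was 2.16-fold lower (log2 -1.11, SE 0.18, limma adjusted p = 0.00116), a call kept in all 22 alternatives, although the difference was -0.44 without background correction. The change from 0 to 2 h differed by -1.03 (SE 0.26, limma adjusted p = 0.0296) and the step from 2 to 6 h, in a contrast added later, by 0.98 the other way (limma adjusted p = 0.028). Ranked by level, the single neighbouring pair that differed was 0 h against 2 h with Akti1/2.

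The difference of the Jun response at 2 h was -1.01 on one chip and -1.06 on the other, but leaving out any of the 8 arrays at 0 and 2 h raised its adjusted p to between 0.0614 and 0.0985, with values from -1.11 to -0.96. It was 0.11 after scaling to the same mean (-0.77) and 0.0543 with no filter on dim genes, and without background correction the difference shrank to -0.41 (adjusted p = 0.0246). The treated fall of Jun from 0 to 2 h, which is also the step between neighbours in the order of levels, missed the threshold after scaling to the same mean (-0.55, adjusted p = 0.0502) and without Akti1/2 0 h replicate 2 (-0.61, 0.0792) or Akti1/2 2 h replicate 1 (-0.65, 0.0521). Without background correction it was -0.25, the changes from 0 to 6 h were -0.34 in both kinds of cells and the 2 to 6 h difference was 0.40, each still called. The 2 to 6 h step was lost without any of 6 arrays, control or treated, at those times (either array of both 2 h groups, control 6 h replicate 2 and Akti1/2 6 h replicate 1; adjusted p 0.059 to 0.1).

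Jund, a Jun gene usually expressed in resting cells, was lower with Akti1/2 at the later times. Control arrays read 7.16 and 7.32 before stimulation, then 7.90 and 7.99 (2 h), 8.04 and 8.24 (6 h) and 7.73 and 7.46 (12 h). With Akti1/2 they read 6.65 and 6.93, 7.36 and 8.36, 6.91 and 7.20, and 7.11 and 6.66. The treated arrays lay below the control arrays at 0, 6 and 12 h and on both sides of them at 2 h, where the treated duplicates were a full log2 unit apart.

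At 6 h Jund was 2.12-fold lower with Akti1/2 (log2 -1.08, SE 0.26, limma adjusted p = 0.00628), and at 12 h 1.64-fold lower (-0.71, limma adjusted p = 0.0403). The change from 0 h did not differ by the test at any time, with -0.64 at 6 h (95% interval -1.44 to 0.17). By the test Jund rose in control cells at 6 h (0.90, limma adjusted p = 0.0238) and with Akti1/2 at 2 h (1.06, limma adjusted p = 0.00797), and with Akti1/2 it fell from 2 to 6 h by 0.80 (limma adjusted p = 0.0361). No neighbouring groups differed in the order of levels, which ran from 6 h control cells (8.14) down to 0 h treated cells (6.79).

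The 6 h difference of Jund was called in all 23 alternatives, with values from -1.23 to -0.68, the smallest of them without background correction. That setting also reduced the 12 h difference to -0.40 and the called changes with time to 0.57 (control, 0 to 6 h), 0.64 (treated, 0 to 2 h) and -0.50 (treated, 2 to 6 h), all still called. With every array kept, the 12 h difference was lost after scaling to the same mean (limma adjusted p = 0.0513). With no filter on dim genes it was also lost (0.0887), as were the control rise at 6 h (0.0519) and the treated step from 2 to 6 h (0.0761). With only the groups compared in the fit, the treated rise at 2 h (0.0601) and the treated step from 2 to 6 h (0.135) were lost. Single arrays carried several of the calls on Jund. The treated rise at 2 h was 0.57 without Akti1/2 2 h replicate 2 (adjusted p = 0.0751) and 0.92 without Akti1/2 0 h replicate 1 (0.0579), and the treated step from 2 to 6 h was -0.30 without the former (0.357) and -0.66 without Akti1/2 6 h replicate 1 (0.198). The 12 h difference was lost without control 0 h replicate 2, either control 12 h array or Akti1/2 12 h replicate 2 (adjusted p 0.0504 to 0.25, values -0.85 to -0.49), and the control rise at 6 h without any control array at 0 or 6 h (0.0603 to 0.121).

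Fos, the immediate early gene that gives the Fos family its name, had a higher level with Akti1/2, and its changes with stimulation did not pass the test. Control arrays read 6.60 and 6.91 before stimulation, then 6.57 and 7.12 (2 h), 6.79 and 6.32 (6 h) and 5.81 and 6.11 (12 h). With Akti1/2 they read 7.94 and 7.61, 7.94 and 7.90, 7.0 and 8.04, and 6.95 and 7.45. At each time both treated arrays lay above both control arrays, although at 6 h the lower treated array was close to the higher control array.

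The difference in Fos level was 1.02 before stimulation (2.03-fold, SE 0.31), after 1 h with the inhibitor, and did not pass the test. Its unadjusted limma p was 0.00611 and its adjusted p 0.727. At that time 383 of 7395 genes had an unadjusted p under 0.05, and 4 were called. The Fos difference was 1.07 at 2 h (2.11-fold, limma adjusted p = 0.0225), 0.96 at 6 h (1.95-fold, limma adjusted p = 0.0276) and 1.24 at 12 h (2.36-fold, limma adjusted p = 0.00524). The difference in the change from 0 h was 0.05, -0.06 and 0.22 at 2, 6 and 12 h (95% intervals reaching from -1.01 to 1.17). Averaged over the 4 times, in a contrast added after the values were seen, Fos was 2.11-fold higher with Akti1/2 (1.07, SE 0.15, limma adjusted p = 9.88e-05), and this was called in all 23 alternatives, with values from 0.58, without background correction, to 1.21. The change of Fos from 0 to 12 h in control cells was -0.80 (unadjusted p = 0.0235, limma adjusted p = 0.0736), with both 12 h arrays below both 0 h arrays, and it passed the threshold in 5 of 23 alternatives (adjusted p 0.0152 to 0.0497). In the order of levels the 4 treated groups stood above the 4 control groups, and no neighbours differed.

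At single times the Fos difference leaned on single arrays and, at 6 h, on the fit. It was 0.80 at 2 h without control replicate 1 (adjusted p = 0.156) and missed the threshold there without either treated array (0.0773 and 0.0829). At 6 h it was 0.44 without Akti1/2 replicate 2 (0.275) and 0.72 without control replicate 2 (0.179), with 0.20 on one chip and 1.72 on the other, and at 12 h it was 0.99 without Akti1/2 replicate 2 (0.0551). With every array kept, the 6 h difference missed the threshold with no filter on dim genes (0.0619) and with only the groups compared in the fit (0.101). Without background correction the differences at 2, 6 and 12 h were 0.63, 0.53 and 0.57, all still called.

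Fosb, an immediate early relative of Fos, had raw intensities of 117.5 to 163.8, while the mean of the negative controls was 111.1 to 138.6. No array of any group was above background, so neither an order nor a fold is given for Fosb.

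Batf had the largest log2 changes of the 5 members at 6 and 12 h in both kinds of cells, and was lower with Akti1/2 at 6 h. Control arrays read 7.65 and 7.44 before stimulation, then 9.40 and 8.76 (2 h), 11.23 and 11.09 (6 h) and 10.92 and 10.89 (12 h). With Akti1/2 they read 7.88 and 7.98, 9.01 and 9.10, 10.70 and 10.51, and 11.20 and 11.22. At 6 h both treated arrays were below both control arrays, and at 12 h both were above them.

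Batf rose in control cells 2.90-fold by 2 h, 12.3-fold by 6 h and 10.3-fold by 12 h (log2 1.54, 3.62 and 3.36, SE 0.17), and in treated cells 2.18-fold, 6.39-fold and 9.74-fold (1.13, 2.68 and 3.28, SE 0.17), with limma adjusted p-values from 1.96e-08 to 0.000401. At 6 h the treated level was lower by a log2 of 0.56 (1.47-fold, limma adjusted p = 0.021) and the change from 0 h differed by -0.94 (SE 0.24, limma adjusted p = 0.0158). Part of that gap lay at 0 h, where the treated level was 0.39 higher (unadjusted p = 0.0401, limma adjusted p = 0.946). From 6 to 12 h the treated level rose by 0.61 (limma adjusted p = 0.0273), while the control difference was -0.26 (limma adjusted p = 0.364), and the difference between these steps was 0.86 (95% interval 0.35 to 1.38, limma adjusted p = 0.0535). At 12 h the difference in the change from 0 h was -0.08 (95% interval -0.60 to 0.44). In the order of levels, the groups at 6 and 12 h did not differ from their neighbours, and each drop from 6 h to 2 h and from 2 h to 0 h did (1.53 and 1.13, limma adjusted p = 4.41e-05 and 0.000401).

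The 6 h level difference of Batf was lost without control 6 h replicate 1 or Akti1/2 6 h replicate 2 (-0.48 and -0.46, adjusted p = 0.111 and 0.113). The difference in response was lost without control 0 h replicate 2, control 6 h replicate 1 or Akti1/2 0 h replicate 2 (0.0541 to 0.063), and the treated rise from 6 to 12 h without Akti1/2 6 h replicate 2 or either Akti1/2 12 h array (0.107 to 0.142).

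**Figure D2:**
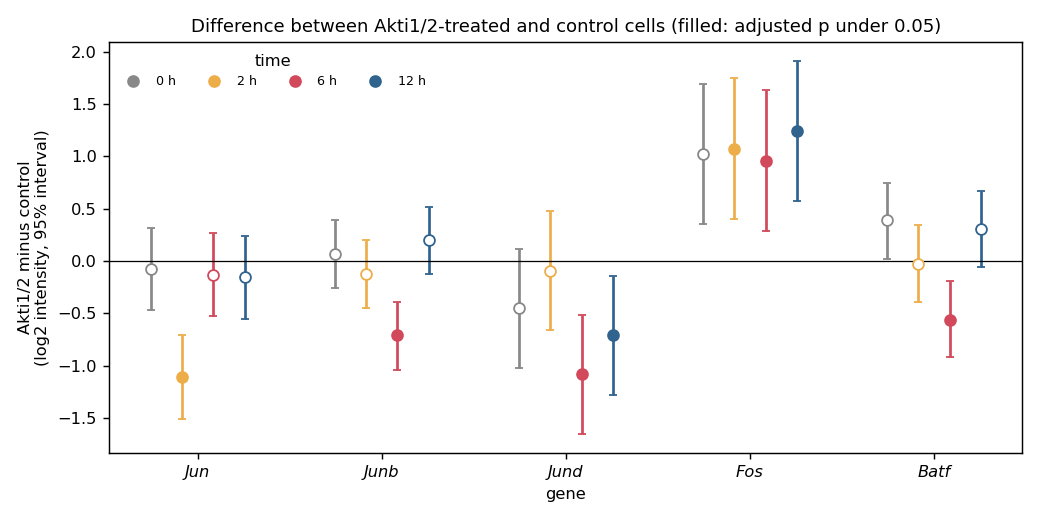
Difference in log2 intensity between Akti1/2-treated and control cells (vertical axis, with 95% intervals of the limma fit) for the 5 tested AP-1 genes at 0, 2, 6 and 12 h, 2 arrays per group. Filled circles passed an adjusted p of 0.05: Jun at 2 h, Junb and Batf at 6 h, Jund at 6 and 12 h, and Fos at 2, 6 and 12 h.

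Of the 5 tested members, stimulation of control cells called 2, 4 and 3 at the 3 times, where 10.3%, 27.5% and 27.8% of all tested genes were called. With Akti1/2 it called 4, 3 and 3, against 38.6%, 33.3% and 44.5% of all genes. Comparisons with 0 h share the 0 h arrays of their kind of cells. Junb and Batf were called higher in all 6, and Jun was called lower in 5 of them. Between neighbouring stimulated times, 2 members were called from 2 to 6 h and 1 from 6 to 12 h in control cells (all genes 14.6% and 13.6%), and 2 and 1 with Akti1/2 (30.2% and 17.8%).

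Between Akti1/2-treated and control cells, 0 members were called by limma at 0 h, 2 at 2 h, 4 at 6 h and 2 at 12 h. The shares of all genes called at these times were 0.0541%, 28.4%, 37.5% and 49.0%, and with 5 members no difference from these shares was tested. At 0 h, 2 of the 5 members (Fos and Batf) had an unadjusted limma p under 0.05, beside 383 of the 7395 genes tested. At 6 h the 5 members had a median difference of -0.56, against -0.01 over all genes tested. The change from 0 h differed for Jun at 2 h (1 of 5, all genes 8.41%), for Junb and Batf at 6 h (2 of 5, 19.5%) and for 0 of 5 at 12 h (32.5%). For that change at 12 h, 0 of 5 members also had an unadjusted limma p under 0.05, beside 3152 of 7395 genes. In the contrasts added later, 1 member was called in the 2 to 6 h step (12.0% of genes), 1 in the 6 to 12 h step (5.92%) and 3 in the mean over the times (52.9%), where Jun and Jund were lower by 0.37 and 0.58 (limma adjusted p = 0.00473 and 0.00255) beside the rise of Fos; the value of Jun there includes the 12 h groups not above background.

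The J5 score, which compares an intensity difference with the mean absolute difference over all genes and carries no error, favours bright genes. Junb passed a score of 20 in all 6 stimulation comparisons, scoring 49.0, 58.3 and 29.7 without the inhibitor and 23.4, 23.1 and 22.5 in treated cells. Each score is divided by the mean absolute difference of its own comparison, so scores with and without the inhibitor are not on a common scale. By 12 h the raw mean intensity of Junb had gone from 1185.0 to 3495.0 in control cells and from 1109.4 to 3546.2 in treated cells. Batf passed at 6 and 12 h in control cells (31.3 and 24.2) and at 12 h with Akti1/2 (20.1), but not at 6 h with Akti1/2 (16). That made 1, 2 and 2 members in control cells and 1, 1 and 2 with Akti1/2 at 2, 6 and 12 h, where 0.673%, 0.728%, 0.645%, 0.662%, 0.667% and 0.855% of the 18138 genes passed.

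Of 13 other bZIP genes that pair with Fos or Jun proteins or share their sites, 6 were tested, and the change from 0 h was called higher with Akti1/2 in 2, 3 and 5 of them at 2, 6 and 12 h and lower in none. These counts take in Atf3 and Atf7, which passed the filter on dim genes mainly or wholly through treated arrays, so that their direction was not free. Of the 4 genes with an array above background in every group, 1, 1 and 3 were called higher, with medians of 0.25, 0.45 and 1.2 against -0.01, -0.01 and -0.02 over all genes tested. Of all tested genes, 4.25%, 10.3% and 16.3% were called higher in this comparison at the 3 times and 4.16%, 9.24% and 16.2% lower. Jdp2, which encodes a repressor that pairs with Jun proteins, averaged 7.62 ± 0.50 (SD, n = 2) in treated cells at 2 h, against 6.12 ± 0.43 in control cells. The gap in its response was 1.60, 1.60 and 2.10 log2 units at these 3 times (limma adjusted p = 0.0215, 0.00935 and 0.000966).

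Atf3, a stress-induced bZIP gene, averaged 7.53 ± 0.47 at 2 h with Akti1/2 and 5.47 ± 0.30 without (SD, n = 2). It was above background on 7 arrays, and on none of control cells at 0, 6 and 12 h or of treated cells at 0 h. The values of Atf3 are a description only, since it passed the filter mainly through treated arrays. Bach2, a bZIP repressor that competes for AP-1 sites, was 7.45 ± 0.04 at 12 h with Akti1/2 and 5.84 ± 0.39 without, and its response differed by 1.77 at 12 h (limma adjusted p = 8.18e-05). At 2 and 6 h the difference in response of Bach2 was 0.03 and 0.41 (limma adjusted p = 0.947 and 0.193). Atf7, a relative of Atf2, was above background on 2 arrays only.

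Of 32 kinases and factors upstream of Fos and Jun, 20 were tested, and the response was higher with Akti1/2 in 4, 5 and 7 and lower in 1, 0 and 0 at 2, 6 and 12 h, with medians of 0.19, 0.23 and 0.12. Of all tested genes, 4.25%, 10.3% and 16.3% were called higher at these times and 4.16%, 9.24% and 16.2% lower. No difference from these shares was tested. Crem, a gene of the CREB family of factors, led with differences of 0.91, 1.17 and 1.89 (limma adjusted p = 0.0133, 0.00118 and 2.33e-05), and its level at 12 h was 7.83 ± 0.03 with Akti1/2 and 5.83 ± 0.06 without (SD, n = 2). Rps6ka3, which encodes the kinase RSK2 downstream of ERK, differed by 0.99, 0.88 and 1.78 (limma adjusted p = 0.0462, 0.0414 and 0.000465). Mapk9, which encodes the Jun kinase JNK2, differed by 0.61 at 6 h and 1.12 at 12 h (limma adjusted p = 0.0136 and 0.000186), and Map2k5, which encodes the kinase upstream of ERK5, by 0.83 at 12 h (limma adjusted p = 0.00121).

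Of 8 factors that bind composite sites with AP-1, 7 were tested, and in response 1 was lower at 6 h and 1 lower and 1 higher at 12 h. Irf8 was the lower one, by 0.94 at 6 h and 0.90 at 12 h in the response (limma adjusted p = 0.0158 and 0.0118), and Nfatc1 the higher one, by 0.53 at 12 h (limma adjusted p = 0.0179). Of all tested genes, 9.24% were called lower at 6 h, and 16.2% lower and 16.3% higher at 12 h. With 7 genes, no difference from these shares was tested. Irf4, the main partner of Batf in T cells, rose 3.34 log2 units by 6 h in control cells and was lower with Akti1/2 at 6 h (9.42 ± 0.06 against 10.20 ± 0.03, SD, n = 2; difference -0.77, limma adjusted p = 0.00865), while the difference in its response was -0.84 (limma adjusted p = 0.0548). Nfatc3, an NFAT gene, had a difference in response of 0.88 at 6 h that did not pass the test (limma adjusted p = 0.0766). At 6 h, Batf, Irf4 and Irf8 were thus each called lower in level with Akti1/2, as were 1386 of the 7395 genes tested. At 2 h none of these was called, with differences of -0.03, -0.38 and -0.07. At 12 h only Irf8 was (-1.12, limma adjusted p = 0.000154), with -0.50 for Irf4 (0.0533) and 0.31 for Batf (0.153).

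Of 8 genes that act on the turnover of Jun and Fos proteins, 6 were tested, and only Csk, which encodes a kinase that restrains Src kinases, was called, lower by 0.87 at 2 h and 0.72 at 12 h in the response (limma adjusted p = 0.0112 and 0.00613). The kinase genes Gsk3a and Gsk3b and the signalosome gene Cops5 followed without passing the test, with -0.91 at 6 h for Gsk3a (limma adjusted p = 0.0841), 0.39 at 12 h for Gsk3b (0.315) and 0.27 at 2 h for Cops5 (0.37), and Gsk3a was above background on 3 arrays only. Of 12 genes known to be regulated through AP-1 sites, 8 were tested, and the response was lower with Akti1/2 in 4, 5 and 6 at 2, 6 and 12 h and higher in 0, 0 and 1, with medians of -1.12, -1.47 and -1.33. Beside the counts of both lists, 4.16%, 9.24% and 16.2% of all tested genes were called lower and 4.25%, 10.3% and 16.3% higher. Of the 7 targets with an array above background in every group, 3, 4 and 5 were lower and 0, 0 and 1 higher. Their medians were -0.51, -1.22 and -1.29. In level, 6 of the 8 were called lower and 2 higher at 6 h, and the same at 12 h. Of all 7395 tested genes, 1386 were called lower and 1390 higher in level at 6 h, and 1834 and 1786 at 12 h. Il2ra, the high-affinity IL-2 receptor chain, averaged 10.43 ± 0.08 at 6 h in control cells and 8.99 ± 0.52 with Akti1/2 (SD, n = 2), and its response differed by -1.22 (limma adjusted p = 0.0179). The cytokine genes Csf2, Il3 and Il5 were lower in response at all 3 times, by 1.29 to 3.45, although Il3 was not above background at 0 h.

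**Figure D3:**
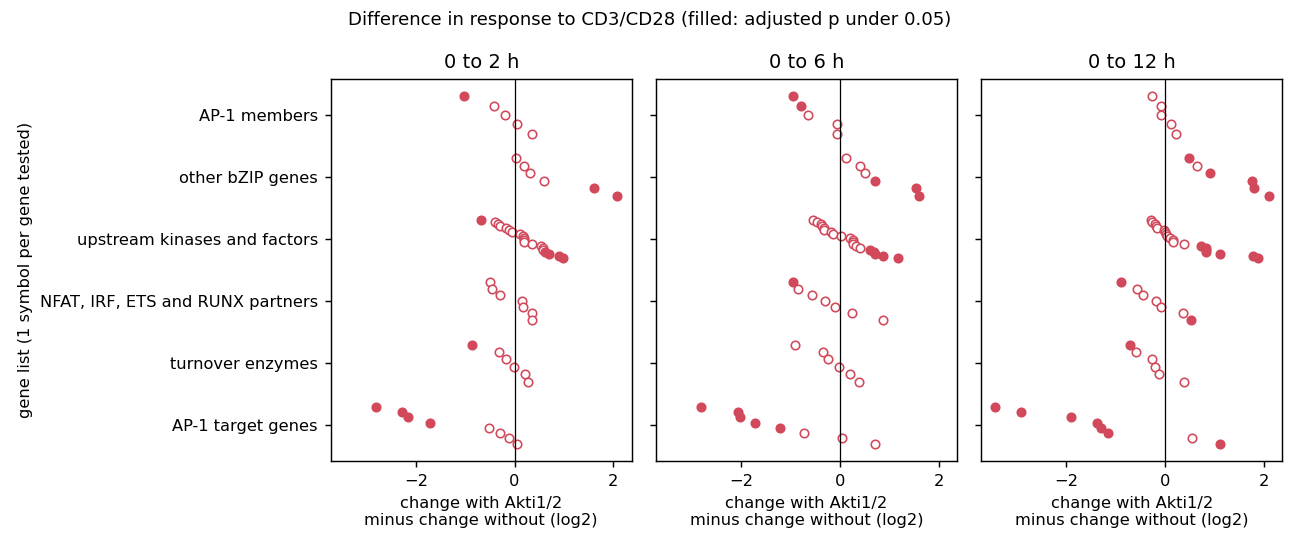
Difference in the change since 0 h between treated and control cells (log2, horizontal axes) at 2, 6 and 12 h, 1 symbol per tested gene of the AP-1 members and 5 related gene lists (vertical axis). Filled symbols passed an adjusted p of 0.05; those of the other bZIP genes, Atf3 and Atf7 among them, lie to the right of 0, and most of those of the AP-1 target genes lie to the left.

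Across the 16 arrays, which share 2 chips and the same time course, the genes most like each member in level were listed by Pearson's r as a description. For Junb they were Nfkbia (0.973), Zc3h12a (0.966) and Ccl1 (0.961), and for Batf Tph1 (0.979), Jak2 (0.965) and Tnfrsf18 (0.962). Fos was most like Rbl1 (0.899), Mocs1 (0.887) and Rgs1 (0.876), and Jun most like Gnaz (0.936), Mfsd4b5 (0.927) and Fmnl3 (0.905), of which Gnaz was above background on 8 arrays and Mfsd4b5 on 6. Jund had the loosest matches, Nupl1 (0.868), Prf1 (0.84) and Ccnd2 (0.838). Among the members themselves, Junb and Batf ran together (0.819) and Jun ran against Batf (-0.784), while Fos had an r between -0.35 and 0.025 with the other 4.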

How the data were processed

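The authors deposited 1 intensity per gene and array from Illumina MouseRefSeq8 chips, on a linear scale, without normalization or background subtraction, per the file headers. For each gene and array, the fraction of the 798 negative controls that reached the gene's intensity was taken as its detection p, and 7395 genes with a value under 0.01 on at least 2 arrays were tested. Intensities were corrected on the negative controls (neqc, offset 16), then quantile-normalized and log2-transformed (limma 3.58.1, R 4.3.3). The 8 groups of 2 arrays were fitted together (8 residual and 4.26 prior degrees of freedom) with no covariate, and the threshold was an adjusted p of 0.05 (Benjamini-Hochberg, over all tested genes). The number of arrays limits the precision. Tables and figures used Python 3.11.15. Only the fit and its contrasts were tested on simulated data, which were drawn on the scale of the normalized values. That test did not cover the filter, the background correction or the normalization.

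The members, gene lists and comparisons were chosen with earlier results of these data known. Named beside the members were, per list, the 4 genes with the smallest adjusted p for a difference in response, and the 3 genes most like each member. Alternatives were another background correction, scaling to the same mean, other filters, a replicate or chip block, fits of only the groups compared, J5 scores and leaving out each array.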

Additional observations from a re-analysis of the deposited data

Results flagged for a closer look

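The response to CD3/CD28 differed with and without Akti1/2 for 3 AP-1 genes by a limma test of the difference itself, with Benjamini-Hochberg adjustment. The change of Jun from 0 to 2 h differed by -1.03 and its change from 2 to 6 h by 0.98. The change of Junb from 0 to 6 h differed by -0.78 and its change from 6 to 12 h by 0.91. The change of Batf from 0 to 6 h differed by -0.94. The steps from 2 to 6 h and from 6 to 12 h were added after the values were seen. Both Jun differences use the 2 h arrays and both Junb differences the 6 h arrays, so neither pair is independent. For Jun at 6 h, 1 of 2 arrays in each group was above background, which limits its step from 2 to 6 h.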

How the results depend on the processing

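Over 2280 values of single members under alternatives with a test, 2180 kept their side of the threshold, 74 lost and 26 gained a call, and 0 changed direction while called. Within each chip, all 82 values of called comparisons had the same direction. The calls were made on these same arrays, so this was largely fixed in advance and is no separate support. The J5 score gave 1 member for control cells at 2 h, 2 at 6 h, and 1 each for Akti1/2-treated cells at 2 and 6 h, in place of 2, 4, 4 and 3. Keeping only genes above background on all 16 arrays, which drops Jun, gave 1 member for Akti1/2 against control at 2 h and 0 for the responses from 0 to 2 h and from 2 to 6 h, but 2 from 6 to 12 h. Scaling to the same mean gave 1 for Akti1/2 against control at 12 h and 0 for the responses from 0 to 2 h and from 2 to 6 h; it moved the median response over all genes at 6 h to 0.12. With no filter on dim genes there was 1 for Akti1/2 against control at 12 h, 0 for both of these responses, and in treated cells 1 from 2 to 6 h and 0 from 6 to 12 h. Fits of only the groups compared gave 1 from 2 to 6 h and 0 from 6 to 12 h in treated cells, and 0 for the responses from 2 to 6 h and from 6 to 12 h. Quantile normalization without background correction gave 2 for each of these responses. Apart from the filter that drops Jun and the fits with fewer samples, the cause of these shifts was not tested.

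Leaving out each array in turn gave 2 to 3, 3 to 4 and 3 to 4 members at 2, 6 and 12 h in control cells and 3 to 4, 3 and 3 with Akti1/2. For Akti1/2 against control it gave 0, 1 to 2, 2 to 4 and 0 to 3 at 0, 2, 6 and 12 h, the lowest without Akti1/2 replicate 2 at 6 h and at 12 h. For the responses it gave 0 to 1, 0 to 2 and 0 at 2, 6 and 12 h. The 1 member left at 2 h without control 2 h replicate 2 was Batf (-0.73, limma adjusted p = 0.0486), not Jun. For the steps from 2 to 6 h and from 6 to 12 h it gave 2 to 3 and 0 to 1 in control cells, 1 to 3 and 0 to 1 with Akti1/2, and 0 to 2 for both differences between them. The mean over the times gave 3 to 4. Each of these fits leaves 1 group with a single array, whose spread is taken from the rest.

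The replicate number as a block changed no call in 100 values of single members, and neither did the chip; with the replicate block, the Jun response at 2 h had an adjusted p of 0.0377 by limma. Deviations of arrays with the same number correlated between -0.296 and 0.264 (median 0.017), and 7 of 28 pairs of groups exceeded 0.1. For arrays on the same chip the median was 0.027, and 8 of 28 pairs exceeded 0.1. Arrays with the same number also share a chip, except that in 12 h control cells the numbers lie on the opposite chips. Whether same-numbered arrays share a culture or a batch cannot be told from these values. Dim signals limit Jun, Fosb and Atf3. Group means within the range of Jun (5.30 to 6.77) were also seen for Jdp2 in control cells (5.87 to 6.12) and Irf8 at 0 h (5.76 and 5.54). The same held for Crem and Bach2 in control cells at 12 h (5.83 and 5.84). The sizes for these list genes were not examined without background correction. The sizes for Fos and Jund also depend on the background correction. Without it their called differences were 1.7 to 2.18 times smaller for Fos and 1.58 to 1.77 times smaller for Jund.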
